A study of Mus musculus with 16 samples.

Results

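The wide H3K27me3 domains of EA-HFSCs were the peaks of the EA-HFSC H3K27me3 list that spanned at least 10000 bp from start to end. They were chosen by width alone, and 545 of the 25534 peaks of that list (2.13%) met the limit. H3K27me3, trimethylation of histone H3 on lysine 27, is deposited by Polycomb repressive complex 2 and is found over genes held silent. In most tissues it forms its broadest stretches over CpG-rich genes of developmental transcription factors that belong to other lineages, where it can meet H3K4me3, the mark of active or poised promoters, in what is called bivalent chromatin. The bulge of the hair follicle holds stem cells that divide in early anagen and enter rest at late anagen or early catagen. The study asked how the 3 marks H3K4me3, H3K9me3 and H3K27me3 differ between early anagen and late catagen.

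Cells came from the skin of wild-type CD1 x FVB mice, male by the sample labels, and were sorted on CD34 and α6-integrin. EA-HFSCs are the CD34+/α6-integrin+ bulge cells of early anagen, postnatal day (PD) 22 to 25, and LC-HFSCs are the same gate in late catagen, PD38 to 44. The CD34-/α6-integrin+ cells of the same ages, nEA-HFSCs and nLC-HFSCs, are a mixture of epidermis and lower outer root sheath rather than a defined cell type. Each population was pooled from several mice, and the reads of independent experiments were pooled before peaks were called, so that 1 deposited peak list stands for each population and mark. With no list per replicate, neither a replicate check nor a test between populations could be made from these lists. Shares carry 95% Wilson intervals, which cover counting error only, because neighbouring domains are not independent. The number of reads behind each list is not part of the files, and a base outside all peaks of a list means that no peak was called there, not that the mark was absent.

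The lists differ in size in ways that bear on every value below. For H3K27me3, EA-HFSCs had 58.2 Mb in peaks, nEA-HFSCs 68.3 Mb in 17488 peaks, nLC-HFSCs 35.9 Mb in 15273 peaks and LC-HFSCs only 7.41 Mb in 1909 peaks. The EA-HFSC H3K9me3 list stood apart from the other H3K9me3 lists at these loci. Its peaks overlapped 539 of the 545 domains and held 59.2% of their bases, against 0.243% in LC-HFSCs, 1.82% in nEA-HFSCs and 5.66% in nLC-HFSCs. Over all EA-HFSC H3K27me3 peaks 30.5% met an EA-HFSC H3K9me3 peak. Its part in the results below was not tested. The lists were also read at the starts of 16 bulge stem cell genes such as Cd34, Lgr5, Krt15, Lhx2 and Sox9. None of the 16 starts lay in an H3K27me3 peak of EA-HFSCs or LC-HFSCs, while 8 did in nEA-HFSCs and 4 in nLC-HFSCs. Of all 22367 protein-coding starts, 370 lay in wide EA-HFSC domains and 1502 in narrower EA-HFSC H3K27me3 peaks. A count of 0 among 16 genes cannot be told from so low a share. The share over all genes was not computed for the other H3K27me3 lists or for H3K4me3, so these counts do not test the gate. H3K4me3 marked 13 of the 16 starts in EA-HFSCs and in LC-HFSCs, 12 in nEA-HFSCs and 11 in nLC-HFSCs, under the same limit.

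The genomic sequence under a few domains shows what kind of DNA they cover. Each line gives the 150-bp stretch with the most CpG dinucleotides outside annotated exons, read from the plus strand of NCBIM37, the assembly also called mm9, with every CpG in capitals. Hand2, Tbx3 and Pax3 are shown because LC-HFSCs covered their domains in part, so that the stretch could be read inside and outside the LC-HFSC peaks. Gata4 stands for the domains without LC-HFSC peaks, and the Tsc22d3 domain is the widest that had no peak in any of the 3 other populations.
Hand2, inside the LC-HFSC cover, chr8:59799621-59799770: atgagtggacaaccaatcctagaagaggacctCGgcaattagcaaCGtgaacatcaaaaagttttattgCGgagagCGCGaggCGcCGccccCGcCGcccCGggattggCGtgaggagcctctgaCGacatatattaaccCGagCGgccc
Hand2, outside the LC-HFSC cover, chr8:59807446-59807595: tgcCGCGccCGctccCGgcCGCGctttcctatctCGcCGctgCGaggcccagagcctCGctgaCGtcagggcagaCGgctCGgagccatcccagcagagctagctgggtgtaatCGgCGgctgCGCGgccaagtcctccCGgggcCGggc
Tbx3, inside the LC-HFSC cover, chr5:120120101-120120250: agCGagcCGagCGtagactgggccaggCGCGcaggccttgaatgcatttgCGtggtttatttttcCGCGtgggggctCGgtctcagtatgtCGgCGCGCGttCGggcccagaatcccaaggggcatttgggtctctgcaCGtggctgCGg
Tbx3, outside the LC-HFSC cover, chr5:120120426-120120575: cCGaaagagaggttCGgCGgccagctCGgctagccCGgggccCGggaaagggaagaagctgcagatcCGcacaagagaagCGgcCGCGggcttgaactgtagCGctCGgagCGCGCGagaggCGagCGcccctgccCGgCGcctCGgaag
Pax3, inside the LC-HFSC cover, chr1:78213841-78213990: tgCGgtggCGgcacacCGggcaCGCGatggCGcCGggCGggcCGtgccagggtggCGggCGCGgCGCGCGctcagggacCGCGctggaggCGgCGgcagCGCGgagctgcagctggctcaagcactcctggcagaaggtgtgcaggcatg
Pax3, outside the LC-HFSC cover, chr1:78213581-78213730: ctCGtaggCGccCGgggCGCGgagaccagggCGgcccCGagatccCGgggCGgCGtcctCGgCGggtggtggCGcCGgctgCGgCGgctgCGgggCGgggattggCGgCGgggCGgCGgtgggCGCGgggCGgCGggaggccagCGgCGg
Gata4, no LC-HFSC cover, chr14:63874731-63874880: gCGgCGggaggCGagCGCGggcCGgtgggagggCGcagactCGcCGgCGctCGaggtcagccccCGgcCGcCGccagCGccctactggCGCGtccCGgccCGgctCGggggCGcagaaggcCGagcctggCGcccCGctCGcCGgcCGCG
Tsc22d3, no cover in the 3 other lists, chrX:137122661-137122810: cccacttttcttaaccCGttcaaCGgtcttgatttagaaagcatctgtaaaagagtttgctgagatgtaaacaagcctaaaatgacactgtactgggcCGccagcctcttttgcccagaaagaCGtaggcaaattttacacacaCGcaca
The Hand2 stretches lie between genes, 84 and 7741 bp from the Hand2 start. Both Tbx3 stretches are in an intron of Gm2301, 502 and 177 bp from the Tbx3 start, the Pax3 stretches are between genes about 20 kb from the Pax3 start at distances of 20207 and 19947 bp, and those of Gata4 and Tsc22d3 are in introns of these genes. The stretches at the transcription factor genes held 14 to 28 CpGs, and the stretch at Tsc22d3 held 5. In each of the 3 genes shown with both kinds, the stretch outside the LC-HFSC cover held more CpGs, 19 against 14 at Hand2, 20 against 16 at Tbx3 and 28 against 21 at Pax3. Each is the densest stretch of its part, and the parts differ in length, so these counts do not compare the parts as wholes. Over the whole parts, CpGs per kb inside and outside the cover were 17.7 and 20.4 at Hand2, 22.6 and 18.6 at Tbx3, and 19.9 and 20.4 at Pax3.

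Over whole domains the sequence was rich in CpG. The observed over expected CpG ratio was 0.35 over the domains, 0.26 over EA-HFSC H3K27me3 peaks under 10 kb and 0.19 over the genome, and 492 of the 545 domains (90.3%) lay above the genome's value. The ratio rose with the width of the peak, from 0.21 in peaks under 2 kb through 0.31 at 5 to 10 kb to 0.37 in domains of at least 20 kb. G and C content moved less, with 48.1% in the domains, 46.6% in the narrower peaks and 41.8% in the genome. The Tsc22d3 domain on chromosome X fell below the genome, with a ratio of 0.13 and 5.49 CpGs per kb. In the 342 domains of which LC-HFSC peaks covered 10 to 90%, the covered bases held 23.3 CpGs per kb and the bases outside 18.0, and in 238 of these domains (69.6%, interval 64.5 to 74.2%) the covered bases were the denser.

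Width ranged from 10001 bp to 66.9 kb with a median of 14.7 kb. Of the 545 domains, 160 reached 20 kb, 64 reached 30 kb, 22 reached 40 kb and 7 reached 50 kb. Together they covered 9.95 Mb, 17.1% of all bases in EA-HFSC H3K27me3 peaks. The score of a peak, 10 times the negative log10 of its p-value against IgG, ranged from 42.6 to 3221 over the domains, with a median of 1192. Width and score did not rank the domains alike: the widest domain had a score of 384, and the 3 highest-scoring domains, at Gad2, Six6 and next to Pou3f3, were 11.8, 21.7 and 25.0 kb wide. Scores tied near the top, where 36 domains had 3100 or more and several, such as those of Evx1 and Lhx1, had exactly 3100. Ranks among these 36 are therefore not read as differences in enrichment. Chromosome 2 had the most domains, 59, followed by chromosome 5 with 58, while chromosome X had 5 and Y none. The narrowest members, at Slc26a4 and BC020535, were 10001 and 10017 bp wide, with 44.5 and 47.3% of their bases in LC-HFSC peaks. The widest non-members, near Aym1 and at Nptx2, were 9999 and 9990 bp wide, with 0 and 31.4%.

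The domains were largely retained in the CD34- populations and far less in LC-HFSCs. nEA-HFSC peaks held 87.3% of the domain bases, nLC-HFSC peaks 80.4% and LC-HFSC peaks 33.4%. At least 50% of the domain lay in peaks for 491 domains in nEA-HFSCs (90.1%, interval 87.3 to 92.3%), 467 in nLC-HFSCs (85.7%, 82.5 to 88.4%) and 179 in LC-HFSCs (32.8%, 29.0 to 36.9%). The same limit was met by 37.4%, 22.8% and 4.11% of all EA-HFSC H3K27me3 peaks in these 3 populations. Domains with no peak at all numbered 30 in nEA-HFSCs (5.50%), 24 in nLC-HFSCs (4.40%) and 164 in LC-HFSCs (30.1%), where 59.2%, 70.3% and 93.3% of all EA-HFSC peaks had none. Much of the short LC-HFSC list lay on the domains, with 44.9% of its bases inside the 545 domains, against 12.7% of the nEA-HFSC bases and 22.3% of the nLC-HFSC bases. When the 1909 highest-scoring peaks of each list were used, which is the whole LC-HFSC list, LC-HFSCs kept 33.4% of the domain bases. nEA-HFSCs fell to 65.8% and nLC-HFSCs to 66.0%. Among peaks scoring 100 or more the values were 17.3%, 84.3% and 76.7%.

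**Figure D1:**
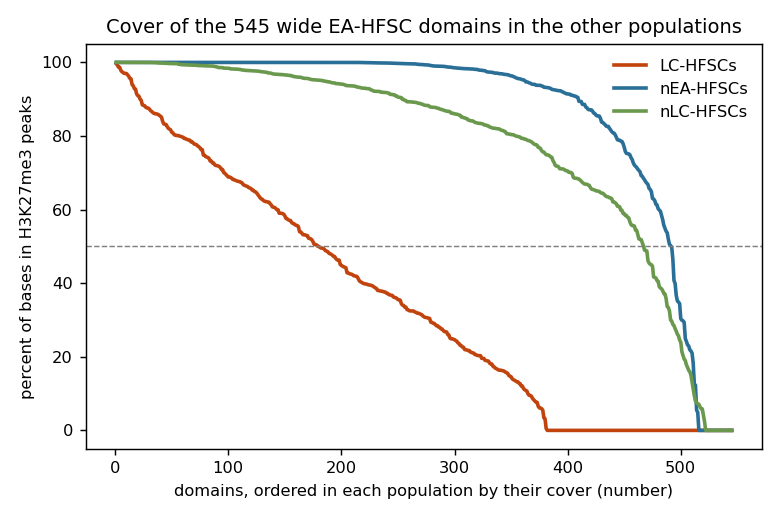
Percent of each domain's bases in H3K27me3 peaks of LC-HFSCs, nEA-HFSCs and nLC-HFSCs (y axis), with the 545 domains ordered by cover separately in each population (x axis). The nEA-HFSC line stays above the dashed 50% line for 491 domains, the nLC-HFSC line for 467 and the LC-HFSC line for 179, after which it falls without a plateau to 0 for the last 164.

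Cover was near complete for most domains in nEA-HFSCs and spread over the whole range in LC-HFSCs. In nEA-HFSCs 409 domains had at least 90% of their bases in peaks and 212 were covered from end to end, while 82 were covered to 50 to 90%, 22 to 10 to 50% and 2 to less than 10%. In nLC-HFSCs 253 domains reached 90%, 30 were covered from end to end, and 214 had 50 to 90%, 44 had 10 to 50% and 10 had less than 10%. LC-HFSC peaks covered at least 90% of 22 domains and the full length of none. They covered 50 to 90% of 157 domains, 10 to 50% of 185 and less than 10% of 17. These classes of cover were not counted over all EA-HFSC peaks. Where LC-HFSCs had any peak it was most often a lone stretch, in 231 of 381 domains, with a median of 7.53 kb covered, and the most a domain had in LC-HFSC peaks was 35.1 kb. nLC-HFSC cover was more broken, with 3 or more stretches in 185 of 521 domains, against 22 of 515 in nEA-HFSCs. Along the domain all 3 populations were highest in the middle. LC-HFSC cover rose from 13.5% in the first 5% of the width to 42.3% near the centre, nLC-HFSC cover from 51.6 to 88.3% and nEA-HFSC cover from 74.4 to 90.2%, and each fell again toward the other end.

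**Figure D2:**
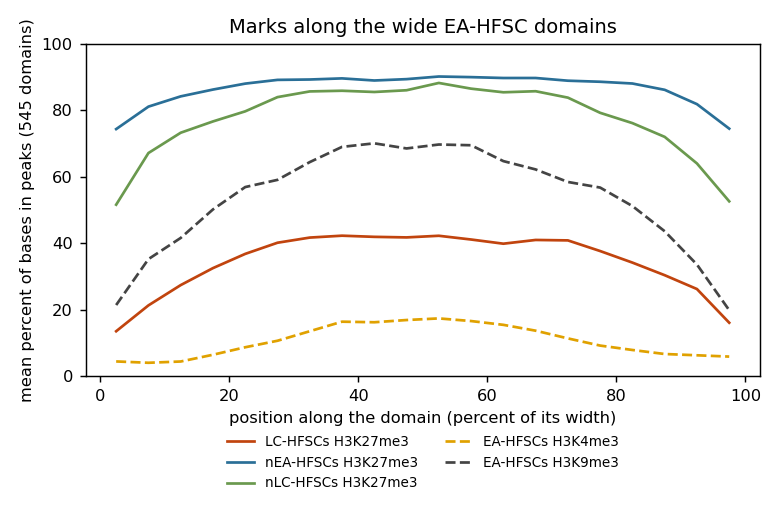
Mean percent of bases in peaks over the 545 domains (y axis) in 20 equal steps from the first to the last base of each domain (x axis, percent of its width). Solid lines are H3K27me3 in LC-HFSCs, nEA-HFSCs and nLC-HFSCs and dashed lines H3K4me3 and H3K9me3 in EA-HFSCs. All lines peak near the middle, where LC-HFSC H3K27me3 reaches 42.3% and EA-HFSC H3K4me3 17.4%.

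Combining the 3 lists, 175 domains (32.1%, interval 28.3 to 36.1%) had at least 50% of their bases in peaks of every other population, against 3.5% of all EA-HFSC H3K27me3 peaks. The largest class was the 276 domains (50.6%, 46.5 to 54.8%) that reached 50% in both CD34- populations and not in LC-HFSCs, against 16.1% of all EA-HFSC peaks. Of these, 114 domains (20.9% of the 545) had no LC-HFSC peak at all, against 14.4% of all EA-HFSC peaks. No domain reached 50% in LC-HFSCs while staying under it in both CD34- populations. LC-HFSC cover exceeded nEA-HFSC cover in 19 domains and nLC-HFSC cover in 24. For these counts and the one before them the share over all EA-HFSC peaks was not computed. With the LC-HFSC list the shortest, at 7.41 Mb, they are not read as a trait of wide domains. Because the domains were selected on their width in EA-HFSCs, the reverse count is given beside these. Of the peaks at least 10 kb wide in the other lists, EA-HFSC peaks of any width covered 50% or more of 80 of 82 in LC-HFSCs (97.6%), 331 of 351 in nLC-HFSCs (94.3%) and 726 of 930 in nEA-HFSCs (78.1%).

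Cover rose with width through every class in nLC-HFSCs, and only up to a point in nEA-HFSCs and LC-HFSCs. nLC-HFSC cover went from 7.73% of bases in peaks under 1 kb to 87.7% in domains of at least 30 kb. nEA-HFSC cover went from 18.8% in peaks under 1 kb through 85.6% at 10 to 20 kb to 90.6% at 20 to 30 kb, and was 87.9% above. LC-HFSC cover was 0.492% in peaks under 1 kb, 22.1% at 5 to 10 kb and 37.2% at 10 to 20 kb, and then 31.3% at 20 to 30 kb and 27.6% above. The widest LC-HFSC peak was 23.0 kb, so that no domain above that width could be filled by a lone LC-HFSC peak. Score moved with cover too. Among domains of 10 to 20 kb, LC-HFSC cover was 23.6% at scores of 100 to 500 and 55.0% at scores of at least 2000, and among domains of 20 kb or more it was 24.4% and 32.2%.

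**Figure D3:**
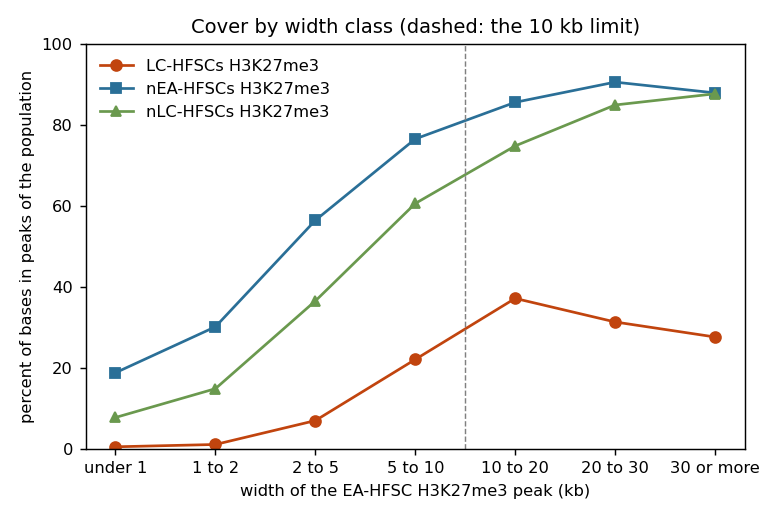
Percent of bases of EA-HFSC H3K27me3 peaks in peaks of the 3 other populations (y axis) by the width of the EA-HFSC peak in kb (x axis). The dashed line marks the 10 kb limit of the domains. nLC-HFSC cover climbs to 87.7% in the widest class, nEA-HFSC cover is highest, 90.6%, at 20 to 30 kb, and LC-HFSC cover is highest, 37.2%, at 10 to 20 kb.

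Genes were counted as inside when their annotated start lay in the domain, on GENCODE vM1. At least 1 protein-coding start lay in 321 domains (58.9%, interval 54.7 to 63.0%), against 6.97% of all EA-HFSC H3K27me3 peaks, a comparison that takes no account of width. The domains held 370 protein-coding starts, 1.65% of the 22367 annotated, and for 185 of them the whole gene body was inside. In 287 domains there was 1 start, in 26 there were 2 and in 8 there were 3 or more, up to 8 in the domain over Evx2 and the Hoxd genes. The domains also held 59 lincRNA and 25 miRNA starts. Of the 224 domains without a protein-coding start, 97 overlapped a protein-coding gene body, 47 lay within 10 kb of a start and 56 lay more than 100 kb from any. Domains with a start were wider, with a median of 16.5 kb against 13.7 kb. Their bases were in nEA-HFSC peaks for 92.4% against 77.5%, in nLC-HFSC peaks for 86.5% against 68.7% and in LC-HFSC peaks for 35.1% against 30.1%.

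At the gene starts themselves, LC-HFSC peaks were more frequent than over the bases of the same domains, and the CD34- lists differed little. This comparison takes no account of place within the domain. Over all domains, mean LC-HFSC cover was 13.5% in the first 5% of the width and 42.3% near the centre. Whether starts differed from other bases at the same place in a domain was not tested. Of the 370 starts, 341 lay in an nEA-HFSC peak (92.2%), 326 in an nLC-HFSC peak (88.1%) and 161 in an LC-HFSC peak (43.5%, interval 38.6 to 48.6%), beside 92.4%, 86.5% and 35.1% of the bases of the 321 domains that hold them. For the 1502 starts that lay in EA-HFSC H3K27me3 peaks under 10 kb, the shares were 82.2%, 61.9% and 18.5%. Around the starts LC-HFSC cover was slightly higher than at the start itself, 46.2% of positions 1000 bp upstream and 45.9% of positions 1500 bp downstream. Further out it fell on both sides, to 13.2% of positions 10 kb upstream and 14.3% of positions 10 kb downstream, where EA-HFSC cover was still 56.5 and 63.5%.

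Genes of developmental transcription factors filled the widest domains. The 8 lists of such factors put 164 genes in 145 domains, whose median width was 24.1 kb, against 13.0 kb for the 176 domains with other starts. The share of a list's genes that started in a domain was 9 of 11 for the Gata and Zic zinc finger factors, 7 of 9 for Pax, 75 of 125 for homeobox genes outside the Hox clusters, 10 of 17 for T-box, 17 of 31 for forkhead, 20 of 39 for Hox, 20 of 43 for lineage bHLH and 6 of 18 for Sox. Over all protein-coding genes the share was 1.65%. The lists were drawn up with earlier results of these data known, so these counts describe the domains and are no independent evidence. The 145 domains and the 176 with other starts had nearly the same LC-HFSC cover, 34.6 and 35.7% of bases.

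**Figure D4:**
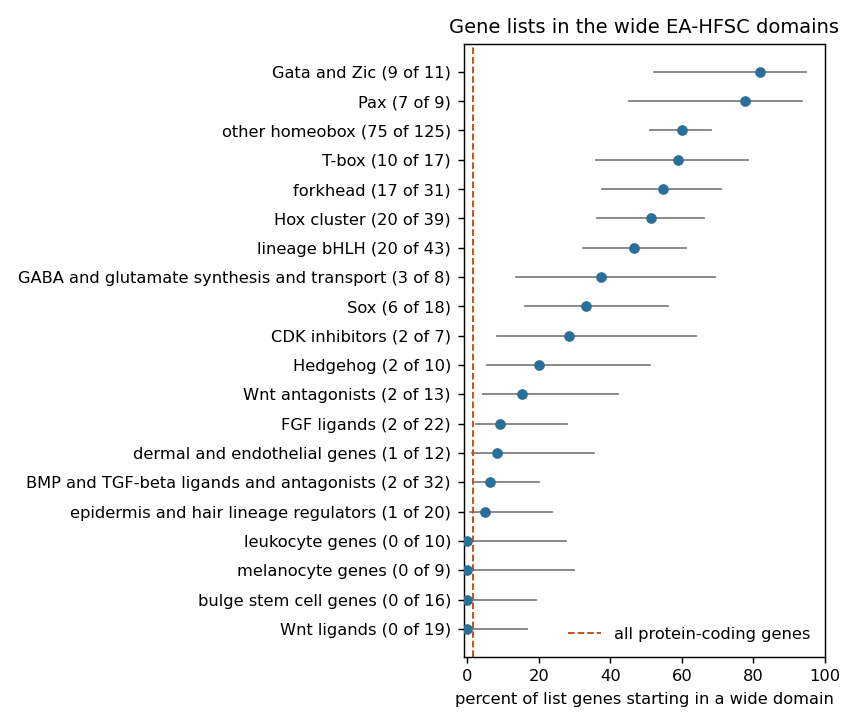
Percent of the genes of each list that start in a wide EA-HFSC domain (x axis), with 95% Wilson intervals as grey lines and the number inside of the number matched beside each list name. The dashed line is the share of all protein-coding genes, 1.65%. The transcription factor lists lie between 33.3% for Sox and 81.8% for Gata and Zic, and 4 lists have no gene inside.

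The Hox clusters, which encode the homeodomain factors that set position along the body, held 6 domains with 20 Hox starts. Of these 20 starts 5 lay in LC-HFSC peaks, beside 43.5% of all 370 starts inside. The widest domain of all, 66.9 kb at chr2:74476284-74543201, covered Evx2 and Hoxd13 to Hoxd8. LC-HFSC peaks held 49.7% of it, nLC-HFSC peaks 99.0% and nEA-HFSC peaks 0%. The second, 65.8 kb at chr2:74543317-74609153 and 115 bp further on, covered Hoxd3, Hoxd4 and Hoxd1 with 24.4% in LC-HFSCs, 99.8% in nEA-HFSCs and 99.1% in nLC-HFSCs. At the first of this pair the nEA-HFSC list has a gap of 68.4 kb, with peaks 1317 bp before the domain and 206 bp after it. What left this gap was not tested. The third, 56.0 kb at chr15:102762331-102818324 over Hoxc12 to Hoxc9, had 19.5% in LC-HFSCs and no base in either CD34- list, with gaps of 138 kb in nEA-HFSCs and 140 kb in nLC-HFSCs.

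The Hoxb and Hoxa domains behaved alike in the CD34- lists. Hoxb13, in a 55.3 kb domain at chr11:96019557-96074903, had no LC-HFSC peak and lay entirely in a peak of nEA-HFSCs and nearly so, at 99.97%, in nLC-HFSCs. Hoxb9 to Hoxb7, 43.8 kb, also had none in LC-HFSCs and 100 and 96.0% in the others. Hoxa11 to Hoxa9, 37.0 kb, had 7.69% in LC-HFSCs, 100% in nEA-HFSCs and 99.7% in nLC-HFSCs. H3K4me3 was broadest in the Hoxb9 to Hoxb7 domain, where EA-HFSC peaks held 41.6% of bases and LC-HFSC peaks 24.7%.

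In 4 of the Hox domains a miRNA gene starts among the Hox genes. Of 25 miRNA starts inside domains, 8 matched an entry with mature sequences in RefSeq, GRCm38.p6. The mature 5p arms of all 8 are shown, 4 genes in Hox clusters, of which 2 give miR-196a, and 4 elsewhere, with the seed, bases 2 to 8, in capitals.
mmu-miR-196a-5p: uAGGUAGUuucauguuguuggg
mmu-miR-196b-5p: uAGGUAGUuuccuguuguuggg
mmu-miR-10b-5p: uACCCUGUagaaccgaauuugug
mmu-miR-9-5p: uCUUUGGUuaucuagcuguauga
mmu-miR-129-5p: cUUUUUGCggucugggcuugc
mmu-miR-1a-1-5p: aCAUACUUcuuuauaugcccaua
mmu-miR-483-5p: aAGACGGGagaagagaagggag
miR-196a and miR-196b share the seed AGGUAGU and come from 3 domains. Mir196a-1, in the Hoxb9 to Hoxb7 domain, Mir196a-2, in the Hoxc domain, and Mir196b, in the Hoxa domain, each started outside LC-HFSC peaks. Mir10b, in the second Hoxd domain, did too, as did Mir9-2, the precursor of a neural miRNA, in a 12.2 kb domain with 16.9% LC-HFSC cover. Mir1a-1, from which a muscle miRNA comes, and Mir483 lay in domains of 12.9 and 14.7 kb without LC-HFSC peaks. Mir129-2 alone of the 8 started inside an LC-HFSC peak, in a 14.5 kb domain with 78.9% LC-HFSC cover. All 8 except Mir196a-2 started in nEA-HFSC and nLC-HFSC peaks.

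Among the 75 other homeobox genes inside, LC-HFSC cover ranged from 0 to 97.3%. Nkx2-3, a gut and spleen factor in a 48.0 kb domain, had no LC-HFSC peak, while nEA-HFSC peaks held 99.8% and nLC-HFSC peaks 98.1% of its bases. Uncx, in a 52.6 kb domain, had 30.7, 99.9 and 94.1% in LC-HFSCs, nEA-HFSCs and nLC-HFSCs. Pitx1, a hindlimb and pituitary factor, lay at the other end. Its 30.2 kb domain was the widest of the 21 that had at least 90% in all 3 populations, with 97.3% in LC-HFSCs, 100% in nEA-HFSCs and 96.7% in nLC-HFSCs. Six6, an eye factor with the second highest score, had 15.7% in LC-HFSCs, and the domain next to Pou3f3, a neural factor, with the third highest had 20.3%. Both scores are among the 36 of 3100 or more, whose ranks are not read further. Vax1, a forebrain factor, was chosen after its values were seen: 46.3% of its 42.7 kb lay in LC-HFSC peaks, 100% in nEA-HFSC peaks and 2.43% in nLC-HFSC peaks.

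The Pax genes, paired-box factors of eye, kidney, muscle and other organs, had little LC-HFSC cover, 18.1% over their 7 domains, against 97.8% in nEA-HFSCs and 93.7% in nLC-HFSCs. Pax3, active in neural crest and muscle precursors, lay in the ninth widest domain, 48.6 kb, with 15.5% in LC-HFSCs. Pax9 had the most LC-HFSC cover of the 7, 74.3%. The forkhead genes had 38.3% in LC-HFSCs over 16 domains. Foxd2 and Foxe3 shared the widest of these, 47.5 kb, with 25.9% in LC-HFSCs, 91.8% in nLC-HFSCs and no nEA-HFSC peak, where the nEA-HFSC gap was 60.6 kb. Foxb2 had the most LC-HFSC cover, 85.9% of 16.8 kb.

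T-box factors, which pattern limb and heart, had 43.0% of the bases of their 10 domains in LC-HFSC peaks. Tbx3, 48.9 kb at chr5:120095598-120144484, had 57.2% in LC-HFSCs, 99.9% in nEA-HFSCs and 91.8% in nLC-HFSCs. Tbr1, a cortical neuron factor, had the most, 89.7%. Neighbours could differ: Tbx2 and Tbx4, chosen after their values were seen, lie in domains 34.3 kb apart, and LC-HFSC peaks held 85.4% of the Tbx2 domain and none of the Tbx4 domain, while nEA-HFSC peaks held all of both.

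Gata and Zic factors had 38.4% in LC-HFSCs. Gata4, a heart and gut factor in a 53.5 kb domain at chr14:63845763-63899301, had no LC-HFSC peak within it, and the flanking LC-HFSC peaks were 2444 kb apart. nEA-HFSC peaks held 98.3% of it and nLC-HFSC peaks 87.5%. Zic2 and Zic5, in a shared 40.1 kb domain, had the most LC-HFSC cover of the list, 87.6%. Lineage bHLH factors had 45.8% in LC-HFSCs and 14 of their 20 starts in LC-HFSC peaks, beside 43.5% of all 370 starts inside. Hand2, a heart and limb factor in a 52.9 kb domain at chr8:59783801-59836741, had 33.5% in LC-HFSCs, 99.8% in nEA-HFSCs and 95.1% in nLC-HFSCs. Olig3, a spinal cord factor, had the most, 90.8%. The Sox list had 6 of 18 inside and 19.6% in LC-HFSCs, with Sox14 the widest at 20.3 kb and no LC-HFSC peak, and Sox17, an endoderm and vessel factor, the most covered at 80.2%.

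**Figure D5:**
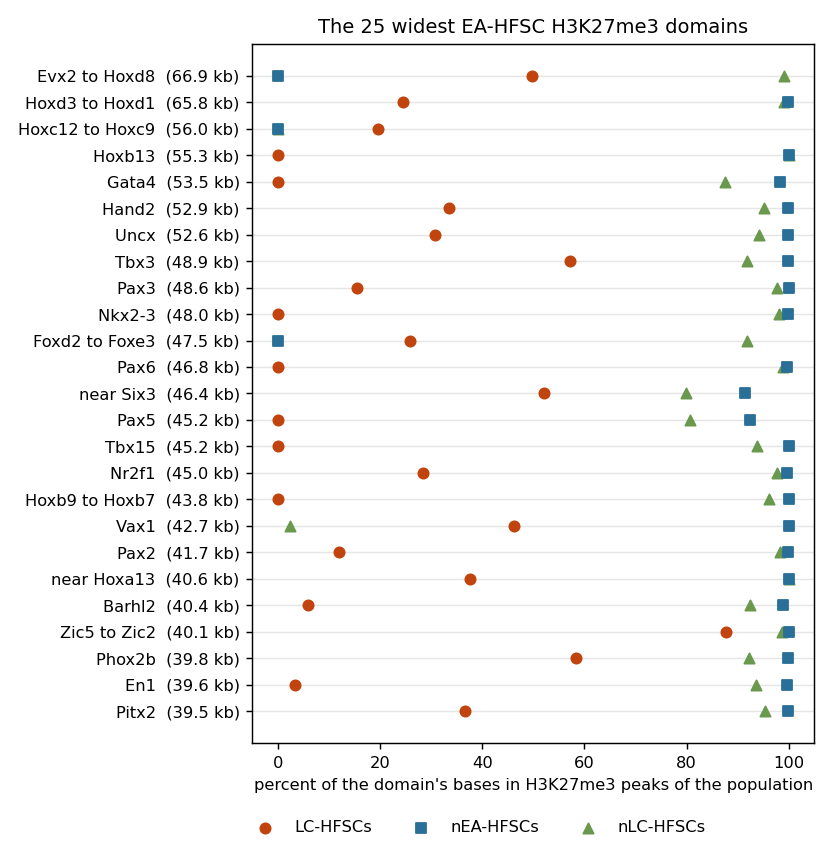
Percent of bases in H3K27me3 peaks of LC-HFSCs (circles), nEA-HFSCs (squares) and nLC-HFSCs (triangles) for the 25 widest EA-HFSC domains. Each is named by the protein-coding genes that start in it, or as near the closest start where none does, with its width in kb. Most squares and triangles crowd near 100%, while circles spread from 0 to 87.6%. Squares or triangles fall to 0 or near it at the widest Hoxd domain and at the Hoxc, Foxd2 and Vax1 domains. Triangles are lower, at 87.5, 80.6 and 79.8%, for Gata4, Pax5 and the domain near Six3.

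Of the genes of the signalling pathways that drive the hair cycle a few were inside, at shares to be read against the 1.65% of all protein-coding genes. None of the 19 Wnt ligands started in a domain. The shares were 15.4% of Wnt antagonists, 6.25% of BMP and TGF-beta ligands and antagonists, 9.09% of FGF ligands, 2 of 10 Hedgehog genes and 2 of 7 CDK inhibitors, each from only 2 genes. Among 13 Wnt antagonists there were Dkk1, an inhibitor of the Wnt co-receptors, with 41.1% LC-HFSC cover, and Sost, the bone antagonist sclerostin, with 66.4%. Of 32 BMP and TGF-beta ligands and antagonists there were Gdf6, covered to 93.7% in LC-HFSCs, and Gdf7, to 37.7%. Of 22 FGF ligands there were Fgf5, which ends the growth phase of the hair, with 20.4%, and Fgf8, with 39.2%. The Hedgehog ligands Shh and Ihh had 76.3 and 33.9%. Each of these 8 domains was covered to at least 76.8% in both CD34- populations. The cell cycle inhibitors Cdkn2a and Cdkn2b lay in neighbouring domains of 28.6 and 14.3 kb that were 12 bp apart, with 53.1 and 74.1% LC-HFSC cover, and 100% of both in nEA-HFSCs.

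Genes of the cells that the sort could hold gave counts of 0 or 1. None of 16 bulge stem cell, 9 melanocyte and 10 leukocyte genes started in a domain, and with 1.65% of all protein-coding genes inside, lists this short cannot be told from that share. The single genes inside were 5% of the epidermis and hair lineage list and 8.33% of the dermal and endothelial list. Of 20 epidermis and hair lineage regulators only Gata3, which is needed in the inner root sheath, did. Its 12.2 kb domain had 62.2% in LC-HFSCs, 80.3% in nEA-HFSCs and 70.1% in nLC-HFSCs. Pdgfra, a fibroblast receptor, was the sole member of the dermal and endothelial list inside, with no LC-HFSC peak, 99.6% in nEA-HFSCs and 91.9% in nLC-HFSCs. Of 8 genes of a GABA and glutamate synthesis and transport list, which also holds a glycine transporter, 3 started in a domain (37.5%, interval 13.7 to 69.4%), beside 1.65% of all protein-coding genes. Gad2, which makes GABA and had the highest of the 36 scores of 3100 or more, had 64.1% in LC-HFSCs. The vesicular and glycine transporters Slc32a1 and Slc6a5 had 26.7 and 44.6%.

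The domains with the highest LC-HFSC cover held no start of a listed gene, and 2 of the 3 held no protein-coding start. Cover was 99.6% over Accn4, an ion channel gene in a 12.2 kb domain, followed by 99.2% in a domain 16.8 kb from the start of Nr4a2 and 98.7% in a 16.0 kb domain 433 bp from the start of Foxf1a, a gene of the forkhead list. All 3 were covered to 100% in both CD34- populations. Foxc2, a neighbour of the last, was named after its values were seen. Its domain, 29.3 kb on, had no LC-HFSC peak.

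The 20 lists accounted for 178 of the 370 protein-coding starts. Of the 10 widest domains with starts of no list, which were named after their values were seen, 7 also held a transcription factor gene. Nr2f1, an orphan nuclear receptor of brain and neural crest, lay in a 45.0 kb domain with 28.4% in LC-HFSCs, 99.6% in nEA-HFSCs and 97.7% in nLC-HFSCs. Sim2 and Sim1, bHLH-PAS factors of the brain, lay in domains of 34.3 and 30.9 kb with 5.51 and 0% in LC-HFSCs. Sp6, a zinc finger factor that acts in hair and tooth, lay in a 34.1 kb domain with 31.9% in LC-HFSCs, and Ebf3, of the early B-cell factor family, in a 33.4 kb domain with 29.1%. Zdbf2, an imprinted gene, had 14.6% of its 38.2 kb in LC-HFSC peaks. nEA-HFSC and nLC-HFSC peaks held at least 95.5% of each of these 6 domains. Cover in nLC-HFSCs was lower for 2 others of the 10, with 92.8% at Pom121l2 and 32.5% at Myl10, a myosin light chain gene, of which nEA-HFSC peaks held 93.5%.

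Of the domains without a protein-coding start, the 3 widest, again named after their values were seen, differed in place. The widest, 46.4 kb, lay 117 kb from the start of Six3 over 1700106N22Rik, with 52.0% in LC-HFSCs, 91.4% in nEA-HFSCs and 79.8% in nLC-HFSCs. The next, 40.6 kb, began 212 bp upstream of the Hoxa13 start, with 37.6% in LC-HFSCs and 100% in both CD34- populations. The third, 33.9 kb, lay 120 kb from Ntf3, a neurotrophin gene, and was among the few with low cover throughout, at 20.3% in LC-HFSCs, 18.2% in nEA-HFSCs and 18.98% in nLC-HFSCs.

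H3K4me3 of EA-HFSCs overlapped 331 domains (60.7%, interval 56.6 to 64.7%), against 8.94% of all EA-HFSC H3K27me3 peaks, a comparison that takes no account of width. Among the 321 domains with a protein-coding start it overlapped 253. It took only 10.3% of the domain bases, beside 10.5% of the bases of EA-HFSC H3K27me3 peaks of 5 to 10 kb. In LC-HFSCs 121 domains (22.2%) met an H3K4me3 peak, in nEA-HFSCs 291 (53.4%) and in nLC-HFSCs 214 (39.3%). At the 370 starts, H3K4me3 was found at 202 in EA-HFSCs, 78 in LC-HFSCs, 148 in nEA-HFSCs and 100 in nLC-HFSCs. For LC-HFSCs, nEA-HFSCs and nLC-HFSCs the share over all EA-HFSC H3K27me3 peaks or all starts was not computed. Their H3K4me3 lists also differ in size, with 37.7, 48.8 and 37.5 Mb in peaks, against 56.1 Mb in EA-HFSCs. These counts are therefore not read as a trait of the domains. The EA-HFSC share was 54.6%, little above the 51.5% of the 1502 starts in EA-HFSC H3K27me3 peaks under 10 kb. LC-HFSC H3K27me3 lay on 80 of the 202 starts with EA-HFSC H3K4me3 (39.6%, 33.1 to 46.5%) and on 81 of the 168 without (48.2%, 40.8 to 55.7%), intervals that overlap.

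A few domains had a peak in EA-HFSCs alone. In 11 of the 545 (2.02%) none of the 3 other lists had a peak, against 54.6% of all EA-HFSC H3K27me3 peaks. They were narrower, with a median of 11.1 kb, and had a median score of 538, and 2 of them held a protein-coding start. The widest, 21.7 kb, lay over Tsc22d3, a glucocorticoid-induced gene, at chrX:137107882-137129564, and was without H3K4me3 peaks in all 4 populations. The others were picked out by this pattern and include Sox21, in a 16.0 kb domain with a low score of 49.0 and EA-HFSC H3K4me3 over 54.3% of its bases, and 2 domains inside the gene Cux1. EA-HFSC H3K9me3 covered a median of 14.4% of these 11 domains and 77.3% of the 21 domains with at least 90% H3K27me3 cover in all 3 other populations.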

How the data were processed

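ChIP-seq of mono-nucleosomes was analysed from 12 deposited peak lists, for 3 marks in 4 populations. The labels describe 16 samples, of which those of IgG have no list here. The authors trimmed single-end reads (Trimmomatic 0.22), aligned them to mm9 with Bowtie2, removed low-quality alignments, pooled replicates and called peaks with MACS 1.4 against IgG of the same population. Each deposited list gives chromosome, start, end and a score from the authors, that is, −log10 of the p-value multiplied by 10, with a threshold of 0.0001 for H3K27me3. The depth of each list cannot be read from the files. The study's methods give a range of mapped reads over all samples, state that LC-HFSCs were sequenced more deeply than EA-HFSCs, and add that H3K27me3 peak calling had not reached saturation. Differences in depth or background between libraries can change how much of a domain passes a fixed threshold.

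Cover is the percent of a domain's bases in the union of the other list's peaks, computed in Python (version 3.11.15, with scipy 1.17.1 and numpy 2.4.6). Positions are 1-based on NCBIM37, the mm9 assembly, with genes of GENCODE vM1. The cover step was tested on simulated data, where 2000 of 2000 peaks were recovered exactly. A CpG ratio is the number of CpGs times the number of bases, divided by the product of the C and G counts. Members and gene lists were chosen with earlier results of these data known.

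Domains named in the text are the 10 widest, the 3 highest-scoring, the 3 widest without LC-HFSC peaks, the 3 with the highest LC-HFSC cover, the widest without an nEA-HFSC peak, without an nLC-HFSC peak and without either or LC-HFSC peaks, the widest with at least 90% in all 3, those next to the width limit, and for each gene list the widest and the most covered, or all where 5 or fewer were inside. The miRNA arms shown are the 5p arms of all miRNA genes inside that matched RefSeq. Other domains are marked as chosen after their values were seen. The alternatives were a minimum width of 8000 or 15000 bp, a score of at least 100, equal numbers of top-scoring peaks, merging of peaks less than 1000 bp apart, autosomes only, and other limits for cover, gene starts and H3K4me3 overlap.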

Additional observations from a re-analysis of the deposited data

How the results depend on the processing

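Of 63 alternative values, 24 stayed within the interval of the value reported (for a number of domains, within 1.5 times) and 39 moved. For shares of bases the interval was computed as if the share were a count of domains. The LC-HFSC values with equal numbers of peaks are among those that stayed, but they could not move, because that setting keeps the whole LC-HFSC list. In each setting LC-HFSC cover stayed below that of both CD34- populations. A minimum width of 8000 or 15000 bp gave 836 or 264 domains, CpG ratios of 0.34 or 0.36, a gene start in 54.4 or 68.6%, H3K4me3 of EA-HFSCs in 55.7 or 67.8%, and nLC-HFSC cover of at least 50% in 81.2 or 89.0% of domains, with 84.3% of bases in nLC-HFSCs at 15000 bp. Merging peaks less than 1000 bp apart gave 1019 domains with a CpG ratio of 0.30, a gene start in 52.3%, H3K4me3 in 50.9%, cover of 23.8% of bases in LC-HFSCs, 74.5% in nEA-HFSCs and 63.3% in nLC-HFSCs, and cover of at least 50% in 18.5, 76.3 and 64.5% of domains. When peaks had to score 100 or more, 532 domains remained, and cover was 17.3% of bases in LC-HFSCs and 76.7% in nLC-HFSCs, with at least 50% in 17.1, 86.5 and 80.5% of domains in LC-HFSCs, nEA-HFSCs and nLC-HFSCs, and H3K4me3 in 51.7%. With the 1909 top-scoring peaks of each list, nEA-HFSCs and nLC-HFSCs covered 65.8 and 66.0% of bases and at least 50% of 68.4 and 70.3% of domains, against 32.8% in LC-HFSCs. Asking for 1 bp of cover gave 69.9, 94.5 and 95.6% of domains in LC-HFSCs, nEA-HFSCs and nLC-HFSCs, and asking for 80% gave 10.3, 81.1 and 65.0%. Gene starts of any biotype were in 64.6% of domains, and H3K4me3 over at least 10% of the domain in 47.0%. The score limit, the merging and the 1 bp and 80% limits changed LC-HFSC cover by more than 1.5 times, except that merging changed it less over bases, and the cause was not tested. No paired analysis was possible because each population and mark has 1 pooled list.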
